A study of Mus musculus with 6 samples.

Results

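The genes described here encode the alarmins TSLP and IL-33 and the receptor chains for TSLP, IL-33, IL-4, IL-13 and IL-31 in mouse skin. They were taken by symbol (Tslp, Il33, Il1rl1, Crlf2, Il7r, Il4ra, Il13ra1, Il13ra2, Il31ra and Il2rg), and all 10 were found among the 55487 genes of the count table. Alarmins are cytokines that stressed or damaged epithelium makes or releases. TSLP and IL-33 act on innate lymphoid cells, mast cells, basophils and dendritic cells, and so promote type 2 immunity, whose main cytokines IL-4 and IL-13 act in turn on macrophages, fibroblasts and keratinocytes. IL-31 is the itch cytokine of this group, and its receptor is found on keratinocytes, myeloid cells and sensory neurons.

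Gene expression was measured by sequencing polyadenylated RNA from whole dorsal mouse skin on day 2. The control group held 3 samples and the DPCP group 3 samples given diphenylcyclopropenone, a contact sensitizer that provokes delayed allergic inflammation of the skin and is used to make hair regrow. The study's title places the comparison in work on macrophages and hair regeneration under contact hypersensitivity. The labels do not give strain, age, sex or dose, what the control skin received, or whether a group's 3 samples were 3 animals. The p-values therefore rest on the spread among these samples, which may be technical.

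The values were read counts per gene. Library totals were 28346992 to 33468828 counts in control and 31609336 to 38846787 in DPCP skin, and levels are given in CPM, counts scaled by library size. A library with no count of a gene limits that gene to 0.0772 to 0.106 CPM or less (3 counts of the total, counting error only). DPCP replicate 2 stood apart in the share taken by CT010467.1, an annotated rRNA gene. It gave that gene 2.46% of its counts, the other 5 libraries gave it 0.167% to 0.489%. DPCP replicate 1 stood apart on the first principal component of log2 CPM, where it lay at 49.2 against 71.9 and 73.8 for the other DPCP libraries and −65.3 to −64.5 for control. Keratinocyte markers summed to 23560 to 29583 CPM in control and 31868 to 36548 CPM in DPCP libraries. In bulk tissue a change in the number of cells of a type and a change in RNA per cell cannot be told apart.

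Of the 10 genes, 8 were higher in DPCP skin, 1 was lower (Il31ra) and 1 was not called (Il7r), at a Benjamini-Hochberg adjusted p under 0.05 in edgeR's quasi-likelihood test over 18259 genes. Of all tested genes, 46.1% were called, 22.8% higher and 23.3% lower. The increases were at least 2-fold for 6 of the 10 genes (7.89% of all tested genes) and the decrease of Il31ra was larger than 2-fold as well (9.12%). The median log2 fold change of the 10 genes was 1.21 and that of all tested genes −0.01. Control and DPCP libraries did not overlap for 9 of the 10 genes, against 58.0% of all tested genes. Of the ligand genes other than Tslp and Il33, Il4 and Il13 were not called, at few counts, and Il31 had no count in any library.

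**Figure D1:**
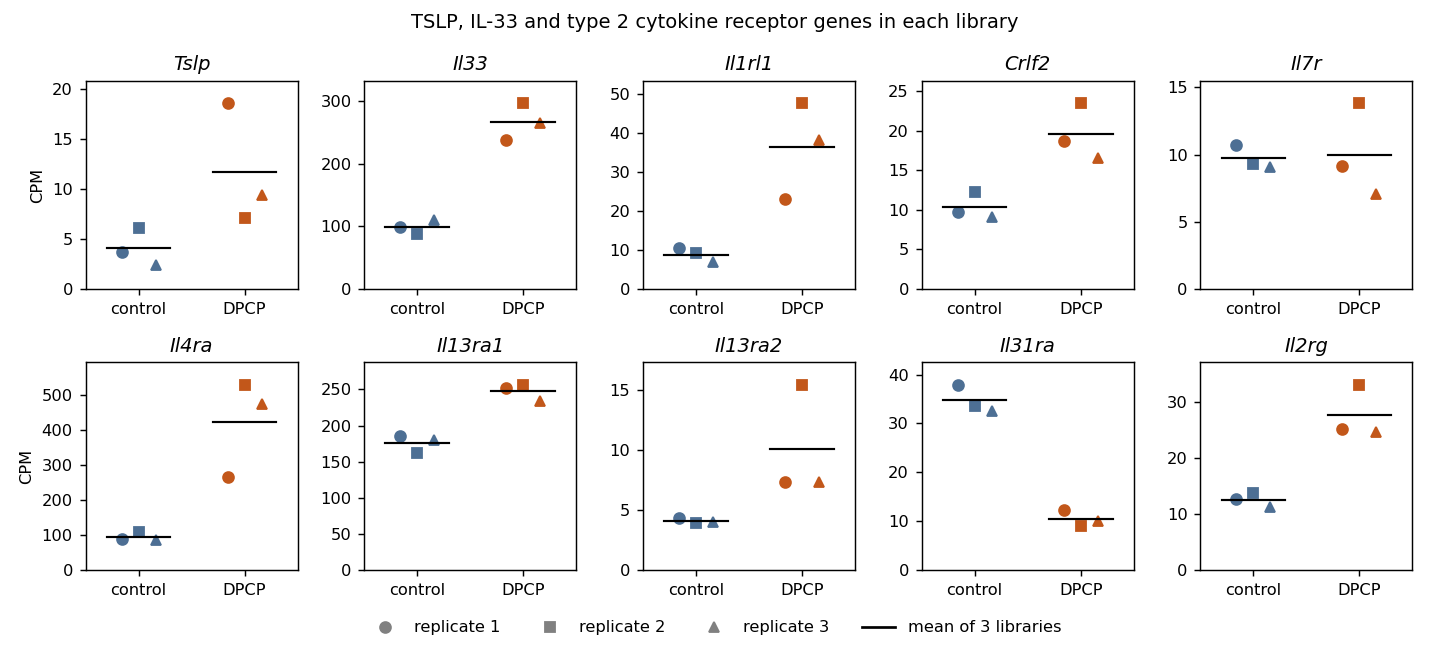
Level of each of the 10 genes in each library, in CPM scaled by TMM factors on a linear axis from 0 (each panel has its own scale), with replicates 1, 2 and 3 as circle, square and triangle and the mean of 3 libraries as a line. DPCP libraries lie above control for 8 genes and below for Il31ra, and the groups overlap for Il7r.

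Sequence upstream of the start sites is shown for an alarmin gene, for 2 receptor genes that rose, for the receptor gene that was not called and for the receptor gene that fell. Each is the RefSeq promoter on GRCm38.p6, from 250 bases before to 50 bases after the start, read 5′ to 3′ on the gene's strand. RefSeq promoters were matched for 9 of the 10 genes, 11 promoters in all, and Tslp was not among them. Capitals mark matches, on either strand, to the AP-1 motif TGANTCA, the STAT motif TTCNNNGAA, the STAT6 motif, which has 1 more base in its gap, an NF-kB motif of GGG and CC with 5 bases between them, and the TATA motif TATAAA. Matches to different motifs can overlap.
Il33 promoter, chr19:29924863-29925162, + strand: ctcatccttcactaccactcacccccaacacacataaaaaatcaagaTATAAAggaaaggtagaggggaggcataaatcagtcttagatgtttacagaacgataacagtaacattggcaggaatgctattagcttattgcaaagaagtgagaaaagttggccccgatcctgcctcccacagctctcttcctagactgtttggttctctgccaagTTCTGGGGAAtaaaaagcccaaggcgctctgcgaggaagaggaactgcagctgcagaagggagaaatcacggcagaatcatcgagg
Il4ra promoter, chr7:125552021-125552320, + strand: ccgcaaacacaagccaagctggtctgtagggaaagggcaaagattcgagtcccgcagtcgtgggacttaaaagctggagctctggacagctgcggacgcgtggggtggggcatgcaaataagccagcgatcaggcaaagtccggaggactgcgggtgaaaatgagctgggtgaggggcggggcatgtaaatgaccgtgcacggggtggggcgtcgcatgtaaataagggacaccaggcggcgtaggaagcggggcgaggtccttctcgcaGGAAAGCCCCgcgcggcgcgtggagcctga
Il13ra2 promoter, chrX:147429143-147429442, − strand: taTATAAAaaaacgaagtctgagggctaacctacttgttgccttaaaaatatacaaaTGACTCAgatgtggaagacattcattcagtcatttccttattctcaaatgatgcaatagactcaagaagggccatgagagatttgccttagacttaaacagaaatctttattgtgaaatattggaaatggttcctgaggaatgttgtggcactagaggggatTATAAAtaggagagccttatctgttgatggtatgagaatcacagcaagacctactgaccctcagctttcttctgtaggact
Il7r promoter, chr15:9529827-9530126, − strand: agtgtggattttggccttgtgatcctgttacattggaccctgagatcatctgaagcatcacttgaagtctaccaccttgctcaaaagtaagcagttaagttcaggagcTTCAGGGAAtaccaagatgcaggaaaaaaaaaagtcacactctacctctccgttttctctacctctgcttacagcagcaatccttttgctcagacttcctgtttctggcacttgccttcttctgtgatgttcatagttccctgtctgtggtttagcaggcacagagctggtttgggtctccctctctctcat
Il31ra promoter, chr13:112580613-112580912, − strand: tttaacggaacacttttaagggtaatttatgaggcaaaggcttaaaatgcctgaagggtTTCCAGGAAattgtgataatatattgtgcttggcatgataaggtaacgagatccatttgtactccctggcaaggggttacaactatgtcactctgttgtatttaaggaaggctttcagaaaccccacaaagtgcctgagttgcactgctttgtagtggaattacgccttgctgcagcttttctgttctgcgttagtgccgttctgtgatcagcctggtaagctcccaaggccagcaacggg

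The AP-1 letters occurred in 1 of the 11 promoters (Il13ra2) and in 7.81% of all 32851 mouse promoters in the table. The STAT letters occurred in 2, those of Il7r, which was not called, and of Il31ra, which fell, and in 8.3% of all promoters. The STAT6 letters occurred in 1, the upstream promoter of Il33, and in 6.95% of all promoters. The NF-kB letters occurred in 3 (Crlf2, Il4ra and Il13ra1) and in 50.8% of all promoters, and the TATA letters in 3 (both Il33 promoters and Il13ra2) and in 13.6%. A match is only a run of letters in this window. The Il31ra start in RefSeq lies inside the gene's span in the count table (chr13:112519898-112594360).

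TSLP is an IL-7-like cytokine made mainly by keratinocytes in skin. Tslp (ENSMUSG00000024379, chr18:32815383-32819797, + strand) was at 3.68, 6.10 and 2.39 CPM in the control and 18.5, 7.06 and 9.34 CPM in the DPCP libraries. The DPCP libraries were all higher, but the lowest of them lay close to the highest control library, and DPCP replicate 1 stood above the rest. The means were 4.05 ± 1.88 CPM (SD, n = 3) and 11.6 ± 6.07 CPM (SD, n = 3), a log2 fold change of 1.53 ± 0.42 (SE; 2.88-fold; edgeR adjusted p = 0.0171). The adjusted p of Tslp was the largest of the 9 calls, and the call was lost without control replicate 1 (log2 fold change 1.47, edgeR adjusted p = 0.0556) and without control replicate 3 (1.25, adjusted p = 0.0505). Without DPCP replicate 1, the library where Tslp was highest, its log2 fold change was 1.02.

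IL-33 is a cytokine of the IL-1 family that barrier cells keep in the nucleus and release on damage. Il33 (ENSMUSG00000024810, chr19:29925114-29960718, + strand) was at 98.3, 88.2 and 109.8 CPM in the control and 238, 296 and 264 CPM in the DPCP libraries. The groups were far apart and each was tight. Il33 rose from 98.7 ± 10.8 to 266 ± 29.0 CPM (SD, n = 3), a log2 fold change of 1.43 ± 0.12 (SE; 2.69-fold; edgeR adjusted p = 4.96e-05). The alarmin genes lay at different levels. Per kilobase of exon, a scale that allows an approximate comparison between genes, mean Tslp went from 3.05 to 8.75 CPM per kb. Mean Il33 went from 34.2 to 92.2 CPM per kb. RefSeq gives Il33 a start upstream and another within the gene, and gene counts do not tell their transcripts apart.

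IL-33 signals through ST2, encoded by Il1rl1, together with the accessory chain encoded by Il1rap. Il1rl1 (ENSMUSG00000026069, chr1:40429570-40465415, + strand) was at 10.5, 9.10 and 6.80 CPM in the control and 23.1, 47.6 and 38.2 CPM in the DPCP libraries. Every DPCP library was at least 2-fold above the highest control library, with DPCP replicate 1 the lowest of the 3. Il1rl1 rose from 8.80 ± 1.86 to 36.3 ± 12.3 CPM (SD, n = 3), a log2 fold change of 2.05 ± 0.27 (SE; 4.14-fold; edgeR adjusted p = 0.000474), which was larger than in 97.3% of tested genes. The gene makes a membrane receptor and a soluble form that binds IL-33 as a decoy, and gene counts do not separate them. Il1rap was at 49.7 ± 3.62 and 64.9 ± 22.5 CPM and was not called (log2 fold change 0.39 ± 0.22, SE; edgeR adjusted p = 0.176). It was called without DPCP replicate 1 (0.60, adjusted p = 0.0171), and its log2 fold change was 0.08 without DPCP replicate 2.

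TSLP binds a receptor of the TSLP-specific chain, Crlf2, and the IL-7 receptor alpha chain, Il7r, which lymphocytes also use for IL-7. Crlf2 (ENSMUSG00000033467, chr5:109554709-109558993, − strand) was at 9.67, 12.3 and 9.07 CPM in the control and 18.7, 23.4 and 16.6 CPM in the DPCP libraries. All DPCP libraries were higher, and the log2 fold change was 0.92 ± 0.17 (SE; 1.89-fold; edgeR adjusted p = 0.00262). Il7r (ENSMUSG00000003882, chr15:9505788-9530176, − strand) was at 10.7, 9.33 and 9.10 CPM in the control and 9.12, 13.8 and 7.05 CPM in the DPCP libraries. The groups overlapped, with DPCP libraries both above and below all controls. The log2 fold change of Il7r was 0.04 ± 0.23 (SE; edgeR adjusted p = 0.895), and it ranged from −0.27 without DPCP replicate 2 to 0.25 without DPCP replicate 3.

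IL-4 and IL-13 share the IL-4 receptor alpha chain, which pairs with the common gamma chain (Il2rg) on blood cells and with Il13ra1 on other cells such as keratinocytes and fibroblasts. Il4ra (ENSMUSG00000030748, chr7:125552120-125579474, + strand) was at 90.5, 110.1 and 87.0 CPM in the control and 266, 530.4 and 476 CPM in the DPCP libraries. DPCP replicate 1 was again the lowest of its group, yet more than 2-fold above the highest control library. Il4ra rose from 95.9 ± 12.5 to 424 ± 140 CPM (SD, n = 3), a log2 fold change of 2.15 ± 0.24 (SE; 4.42-fold; edgeR adjusted p = 0.00022), the largest of the 10 genes. It shares 571 of its 6002 exon bases (9.51%) with the antisense gene Gm44876, which had 2 counts in all 6 libraries together, and reads over shared bases were not counted.

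Il2rg encodes the common gamma chain of the receptors for IL-2, IL-4, IL-7, IL-9, IL-15 and IL-21. Il2rg (ENSMUSG00000031304, chrX:101264378-101268255, − strand) was at 12.6, 13.8 and 11.2 CPM in the control and 25.1, 33.0 and 24.6 CPM in the DPCP libraries. All DPCP libraries were higher, and the log2 fold change was 1.14 ± 0.14 (SE; 2.201-fold; edgeR adjusted p = 0.000424). Its level is understated, because 728 of its 2387 exon bases (30.5%) are shared with Gm20489 on the same strand, a gene with no counts, and such reads were dropped.

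Il13ra1 and Il13ra2 both bind IL-13, the first as a signalling chain and the second with very high affinity as a receptor best known as a decoy. Il13ra1 (ENSMUSG00000017057, chrX:36112110-36171259, + strand) was at 185, 163 and 181 CPM in the control and 252, 257 and 233 CPM in the DPCP libraries. The groups did not overlap, though the increase was the smallest of the 8 (log2 fold change 0.49 ± 0.09, SE; 1.40-fold; edgeR adjusted p = 0.0025). Il13ra2 (ENSMUSG00000031289, chrX:147383476-147429192, − strand) was at 4.39, 3.90 and 4.06 CPM in the control and 7.36, 15.4 and 7.38 CPM in the DPCP libraries. DPCP replicate 2 was high and the other DPCP libraries were near each other. The log2 fold change of Il13ra2 was 1.29 ± 0.29 (SE; 2.45-fold; edgeR adjusted p = 0.0073), and it was 0.84 and still called without DPCP replicate 2 (adjusted p = 0.0063).

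IL-31 signals through Il31ra paired with the oncostatin M receptor chain, Osmr. Il31ra (ENSMUSG00000050377, chr13:112519898-112594360, − strand) was at 37.9, 33.7 and 32.6 CPM in the control and 12.4, 9.08 and 10.02 CPM in the DPCP libraries. Control libraries were all higher, and no other of the 10 genes was called lower. Il31ra fell from 34.7 ± 2.82 to 10.5 ± 1.70 CPM (SD, n = 3), a log2 fold change of −1.73 ± 0.13 (SE; 3.31-fold lower; edgeR adjusted p = 4.00e-05), and 3.24% of tested genes had a lower value. Its partner moved the other way: Osmr rose from 74.1 ± 3.46 to 147 ± 21.1 CPM (SD, n = 3), or by 0.99 ± 0.11 on the log2 scale (SE; edgeR adjusted p = 0.000271). Il31ra shares 45 of 5673 exon bases (0.793%) with the pseudogene Gm3226. Sensory neuron and Schwann cell markers also fell in 4 of 7 tested genes, against 23.3% of all tested genes called lower. Their summed level was 189 to 243 CPM in control and 114 to 159 CPM in DPCP libraries, with Nefl at 0. The part of these cells in the Il31ra result was not tested.

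**Figure D2:**
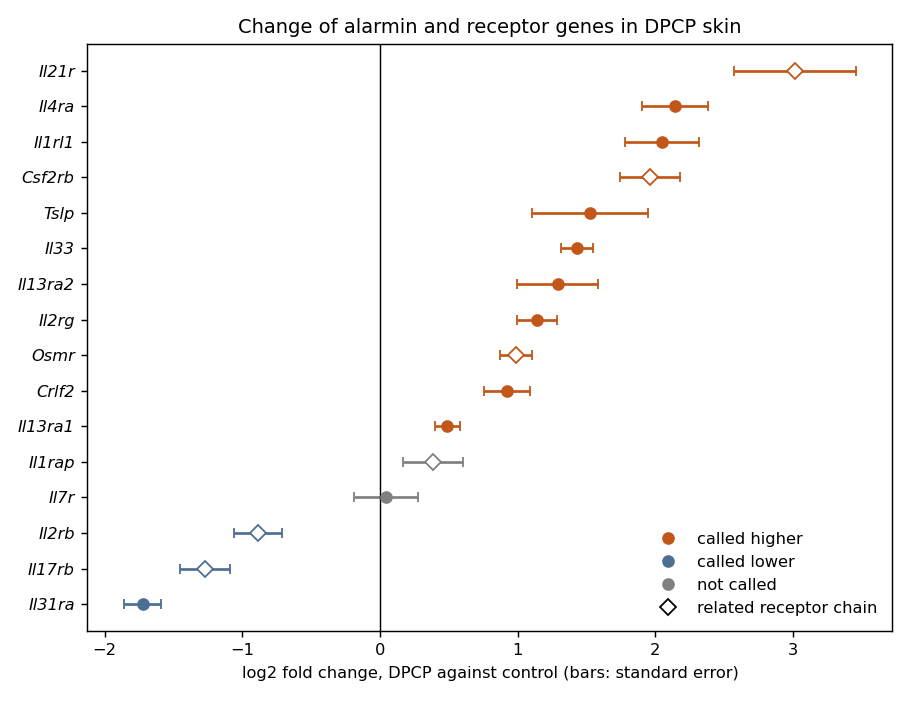
Log2 fold change of each of the 10 genes, DPCP against control, from edgeR over 3 against 3 libraries, with bars of 1 SE, and of 6 related receptor chains as open diamonds. Among the 10 genes Il4ra and Il1rl1 lie highest at 2.15 and 2.05, Il7r lies at 0.04 and Il31ra at −1.73. The related chain Il21r lies above all of them at 3.01.

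The order of levels per kilobase of exon changed between the groups. In control skin Il13ra1 was highest (43.9 to 49.9 CPM per kb), followed by Il33 (30.6 to 38.0) and Il4ra (14.5 to 18.3), and these ranges did not overlap. Crlf2 (6.07 to 8.20), Il31ra (5.74 to 6.68) and Il2rg (4.70 to 5.77) came next, with Il31ra overlapping each neighbour. Tslp (1.79 to 4.58) overlapped Il7r (1.95 to 2.30) and Il13ra2 (1.71 to 1.93), and Il1rl1 was lowest (0.987 to 1.52). In DPCP skin Il33 (82.5 to 103) and Il4ra (44.3 to 88.4) overlapped at the top, and Il4ra overlapped Il13ra1 (62.9 to 69.1). Crlf2 (11.1 to 15.7), Il2rg (10.3 to 13.8), Tslp (5.30 to 13.9), Il1rl1 (3.36 to 6.91) and Il13ra2 (3.23 to 6.76) followed, each overlapping the next. At the bottom lay Il7r (1.51 to 2.96) and Il31ra (1.601 to 2.18), which overlapped. Dropped reads understate Il2rg and, to a lesser extent, Il4ra, so their places in both orders may be too low.

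The balance of paired chains was compared within each library as the ratio of counts per kb, where library scaling cancels. For each of the 6 ratios the 3 control and 3 DPCP libraries did not overlap, which gives an exact 2-sided permutation p of 0.1, the smallest that 3 against 3 allows (0.1 after Benjamini-Hochberg over the 6). None of them could reach 0.05 in this design. Il31ra/Osmr differed most, at 1.15, 0.963 and 0.900 across control libraries and 0.216, 0.123 and 0.133 across DPCP libraries, a difference in mean log2 ratio of −2.71. Per kb of exon the chains were near parity in control skin, and Osmr was well above Il31ra in DPCP skin. In CPM, without the division by length, Osmr was already above Il31ra in control skin (means of 74.1 and 34.7). Il1rl1/Il1rap was 0.329, 0.329 and 0.221 across control libraries and 0.857, 0.881 and 1.03 across DPCP libraries, a difference of 1.68.

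The IL-4 and IL-13 receptor chains shifted toward Il4ra. Il4ra/Il13ra1 was 0.302, 0.418 and 0.298 across control libraries and 0.652, 1.28 and 1.26 across DPCP libraries, a difference in mean log2 ratio of 1.601. Il4ra/Il2rg was 2.85, 3.18 and 3.08 across control libraries and 4.21, 6.39 and 7.70 across DPCP libraries, a difference of 0.96, with both levels lowered by dropped reads as above. Il13ra2 stayed far below Il13ra1 in all 6 libraries. Its ratio to Il13ra1 was 0.0388, 0.0391 and 0.0367 across control libraries and 0.0476, 0.0979 and 0.0515 across DPCP libraries, a difference of 0.70 that was 0.38 without DPCP replicate 2. Crlf2/Il7r was 2.81, 4.10 and 3.11 across control libraries and 6.39, 5.29 and 7.31 across DPCP libraries, a difference of 0.93.

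**Figure D3:**
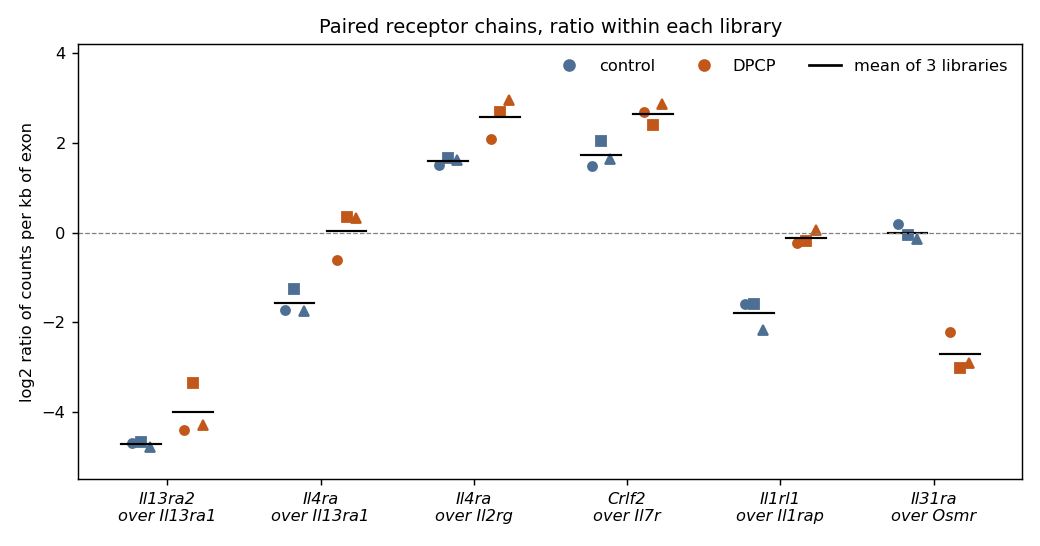
Log2 ratio of counts per kb between paired receptor chains in each library, with replicates 1, 2 and 3 as circle, square and triangle. DPCP libraries lie above control for 5 ratios and below for Il31ra/Osmr, whose mean log2 ratio was −0.00 in control and −2.71 in DPCP skin.

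A list of 10 other cytokine ligand genes, without Tslp and Il33, which both rose as given above, ranged from no counts to several CPM. Of these 10 ligand genes, 5 had enough counts to be tested. None of the 5 was higher by edgeR (also 0 at an unadjusted p under 0.05 and 0 by DESeq2). Il25 and Il7 were lower, and the median log2 fold change was −0.30 (46.1% of all tested genes were called). Il15, a cytokine that signals through the common gamma chain, had the highest mean level of them per kb of exon (3.59 and 3.15 CPM per kb) and was at 8.11 ± 1.71 and 7.12 ± 2.37 CPM (SD, n = 3). It was not called (edgeR adjusted p = 0.596). Il4 was at 1.39 ± 0.457 and 1.13 ± 0.175 CPM (SD, n = 3; log2 fold change −0.30 ± 0.31, SE; edgeR adjusted p = 0.459), with a log2 fold change of −0.06 without control replicate 1 and −0.52 without control replicate 2. Il13 was at 0.207 ± 0.156 and 0.343 ± 0.186 CPM, from 19 and 36 counts over the groups (log2 fold change 0.75 ± 0.68, SE; edgeR adjusted p = 0.389), and its log2 fold change ranged from 0.35 without control replicate 2 to 1.46 without control replicate 1. Il31 and Il9 had no count in any library, which allows up to 0.0331 CPM over the control and 0.0285 CPM over the DPCP group (3 counts over the group). Il5 had 2 counts in each group. Il25, the epithelial cytokine that with TSLP and IL-33 drives type 2 immunity, had 14, 11 and 11 counts across control libraries and 0 in each DPCP library, at least 13.9-fold lower (floor of 3 counts over the group; edgeR adjusted p = 0.00208). Il7 fell by 0.44 ± 0.16 on the log2 scale (SE; edgeR adjusted p = 0.0485), a call lost with RLE factors, without a count filter, with DESeq2 and with any of the 6 libraries left out (adjusted p of 0.0526 to 0.135).

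Of 12 tested partner and related chains, 4 were higher, 2 lower and 6 not called, with a median log2 fold change of 0.23. The share called was near the 46.1% called among all tested genes (22.8% higher and 23.3% lower). Il21r, the IL-21 receptor chain that pairs with the common gamma chain, rose from 0.662 ± 0.343 to 5.31 ± 2.03 CPM (SD, n = 3), or by 3.01 ± 0.44 on the log2 scale (SE; edgeR adjusted p = 0.000857). Csf2rb, the shared beta chain of the IL-3, IL-5 and GM-CSF receptors, rose by 1.96 ± 0.22. Il17rb, a chain of the IL-25 receptor, fell by 1.27 ± 0.19 (edgeR adjusted p = 0.000827). Il2rb, the IL-2 and IL-15 receptor beta chain, fell by 0.88 ± 0.17 (adjusted p = 0.00355).

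Downstream signalling genes were called in 11 of 22 cases, 8 higher and 3 lower, a share near the 46.1% called among all tested genes (22.8% higher and 23.3% lower), with a median log2 fold change of 0.11. Myd88, the adaptor of the IL-33 receptor, rose from 42.4 ± 2.50 to 95.4 ± 10.7 CPM (SD, n = 3), or by 1.17 ± 0.10 on the log2 scale (SE; edgeR adjusted p = 7.25e-05), and its kinase Irak4 rose by 0.81 ± 0.10. Socs3, a feedback inhibitor of cytokine receptors, rose by 2.18 ± 0.20. Stat6, the transcription factor that IL-4 and IL-13 activate, was at 161 ± 3.21 and 181 ± 3.58 CPM and was not called (adjusted p = 0.1). The 3 that fell were Irs1 (by 1.22 ± 0.14) and Irs2 (by 0.48 ± 0.13), insulin receptor substrates that also dock to the IL-4 receptor, and Gata3 (by 1.05 ± 0.13), a transcription factor of type 2 lymphocytes and of the hair follicle. The Irs2 call was lost without control replicate 2 (adjusted p = 0.0594).

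Of 19 tested genes known to be induced by IL-4 or IL-13, 7 were higher, 2 lower and 10 not called, with a median log2 fold change of 0.11. The share called in either direction was again near the 46.1% of all tested genes. Higher calls outnumbered lower ones, whereas all tested genes gave 22.8% higher and 23.3% lower. Chil3, which macrophages make as a chitinase-like protein, rose from 0.693 ± 0.359 to 33.9 ± 3.82 CPM (SD, n = 3), or by 5.58 ± 0.27 on the log2 scale (SE; edgeR adjusted p = 5.60e-06). Its close relative Chil4 can share reads with it. Socs1, a feedback inhibitor, rose by 0.99 ± 0.16, and Ccl8, a chemokine gene of macrophages, by 2.16 ± 0.37. Retnla, another macrophage gene of type 2 responses, was at 837, 479 and 618 CPM in the control and 333, 84.3 and 29.2 CPM in the DPCP libraries. It was lower in all DPCP libraries, and its log2 fold change was −2.11 ± 0.72 (SE; edgeR adjusted p = 0.0403). The call was lost when control replicate 1, 2 or 3 or DPCP replicate 2 was left out (adjusted p of 0.104, 0.0660, 0.0693 and 0.114), and the value was −3.50 without DPCP replicate 1. Mgl2, a lectin of dermal dendritic cells and macrophages, fell by 0.98 ± 0.30 (adjusted p = 0.0273), a call lost without control replicate 1 or 2 (0.0833 and 0.0647). The number of genes called lower in this list was 0 without control replicate 1, 1 without control replicate 2 or 3, and 4 without DPCP replicate 1.

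Genes known to control Tslp in keratinocytes gave 7 higher, 4 lower and 12 not called of 23, with a median log2 fold change of −0.01. The share called was near the 46.1% of all tested genes (22.8% higher and 23.3% lower). The increases with the smallest p were those of Klk6 (5.28 ± 0.27, SE) and Klk7 (1.62 ± 0.12), kallikrein proteases of the epidermis, and of the cytokine gene Il1b (6.53 ± 0.60), which shares exons with an antisense gene. F2rl1, the protease-activated receptor through which kallikreins can induce Tslp, fell by 0.36 ± 0.12 (edgeR adjusted p = 0.034). That call was lost without control replicate 1, 2 or 3 or DPCP replicate 2 or 3 (adjusted p of 0.0750, 0.0744, 0.102, 0.0686 and 0.0601). Stim1, the calcium sensor of store-operated entry, fell by 0.66 ± 0.12 and Rarg, a retinoic acid receptor, by 0.59 ± 0.12. In this list 2 genes were called lower without control replicate 2 or 3 or DPCP replicate 2 or 3.

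Genes tied to the processing or release of IL-33 were mostly higher: of 11 tested, 10 rose, none fell by edgeR (also 0 at an unadjusted p under 0.05 and 0 by DESeq2) and 1 was not called (Capn1), against 22.8% of all tested genes called higher, with a median log2 fold change of 1.04. Gsdmc, a pore-forming gasdermin, rose from 5.15 ± 0.143 to 190 ± 25.2 CPM (SD, n = 3), or by 5.20 ± 0.13 on the log2 scale (SE; edgeR adjusted p = 3.01e-07), with a level that is uncertain because it has close copies in the genome. Ripk3, a kinase of necroptosis, rose by 1.84 ± 0.11, and Capn2, a calpain protease, by 1.18 ± 0.11. The list also holds mast cell proteases, Cma1, Mcpt4, Tpsb2 and Tpsab1, all of which rose, the tryptase genes Tpsb2 and Tpsab1 being close copies of each other whose counts are uncertain. They belong to the mast cell markers too, of which 6 of 10 rose and 1 fell.

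Of 11 tested itch genes, 6 rose, 2 fell (Il31ra and Hrh1) and 3 were not called, against 22.8% and 23.3% of all tested genes called higher and lower, with a median log2 fold change of 0.99. The rising ones included Osm, the cytokine that binds Osmr without Il31ra, at 0.566 ± 0.248 and 13.1 ± 9.06 CPM (SD, n = 3; log2 fold change 4.54 ± 0.58, SE), and the natriuretic peptide gene Nppb (4.89 ± 0.51). Hrh1, a histamine receptor, fell by 0.76 ± 0.20 (edgeR adjusted p = 0.0147), a call lost without control replicate 2 or DPCP replicate 2 (0.0571 and 0.0506). Without either of these libraries 1 gene of the list was called lower. The ion channel gene Trpa1, known from sensory neurons, had no count.

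**Figure D4:**
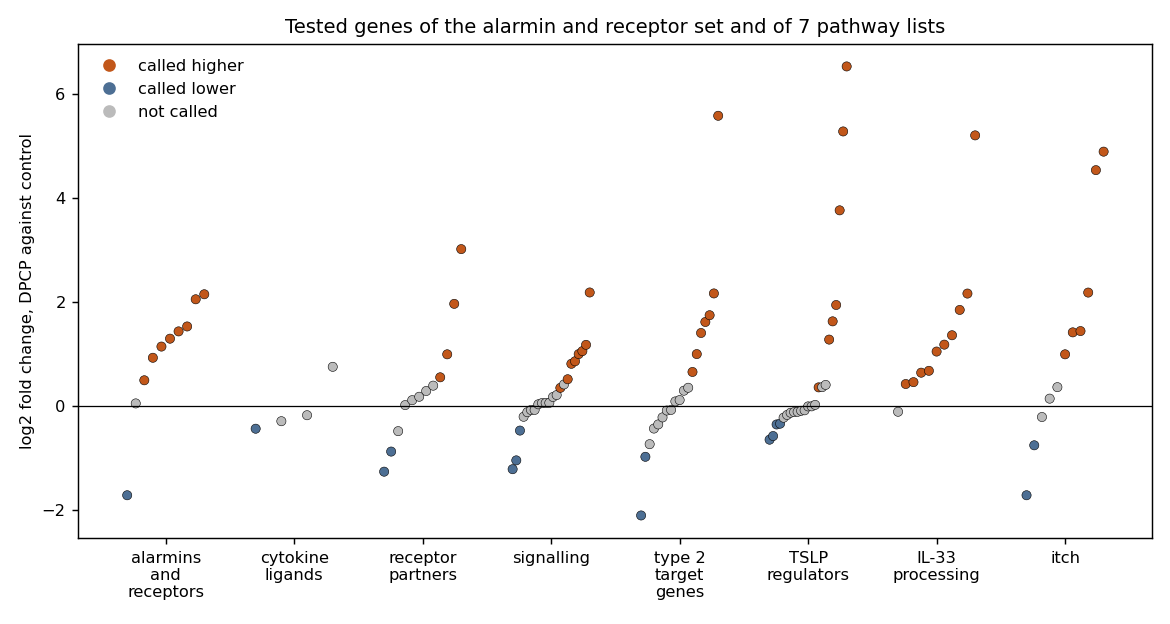
Log2 fold change, DPCP against control, of each tested gene of the 10 alarmin and receptor genes and of 7 pathway lists, ordered within each list and coloured by call (edgeR, adjusted p under 0.05). Il25, at 0 counts in each DPCP library, is not drawn, and the IL-33 processing list has 10 of 11 genes called higher.

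The cell type marker lists are given beside all tested genes, of which 46.1% were called, 22.8% higher and 23.3% lower. The macrophage and basophil lists were called at a share near that 46.1%, with every call higher. Neutrophil markers rose in 9 of 9 tested genes, from a summed level of 46.9 to 57.8 CPM in control to 654, 1629 and 1089 CPM in DPCP replicates 1, 2 and 3. Much of these DPCP sums came from S100a9 (215, 627 and 343 CPM) and S100a8 (125, 315 and 208 CPM). Stressed keratinocytes also make S100a9, so the sum does not measure neutrophils alone. Macrophage markers rose in 5 of 12 genes (2156 to 3602 CPM and 3604 to 6247 CPM). Endothelial markers rose in 8 of 10 and fell in 1 (301 to 358 CPM and 539 to 612 CPM). Mast cell markers rose in 6 of 10 and fell in 1 (276 to 321 CPM and 419 to 663 CPM), and basophil markers rose in 4 of 9 (61.3 to 63.6 CPM and 76.8 to 125 CPM). Among the DPCP libraries, 8 of the 10 genes were highest in replicate 2, while Tslp and Il31ra were highest in replicate 1. The neutrophil, macrophage, mast cell, basophil, fibroblast and epidermal gamma delta T cell sums were also highest in replicate 2. The sums of the other marker lists were highest in replicate 1 or 3. Replicate 2 was also the library that gave CT010467.1 2.46% of its counts. The part of any cell type in the levels of the 10 genes was not tested.

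Markers of group 2 innate lymphoid cells, which carry Il1rl1, Crlf2 and Il7r, rose in 1 and fell in 3 of 8 tested genes (505 to 569 CPM and 263 to 343 CPM). Of this list, Il17rb, Il2ra and Il9r had control means of 3.55, 2.74 and 0.616 CPM, a small part of the sum. Gata3, which fell, is also a gene of the hair follicle, so the sum does not measure these cells alone. The falls of Gata3 and Il17rb are also counted in lists above. T cell markers rose in 2 and fell in 6 of 12 (91.2 to 109 CPM and 49.4 to 64.7 CPM). Markers of epidermal gamma delta T cells rose in 1 and fell in 6 of 11, although their summed level was higher (269 to 321 CPM and 351 to 483 CPM). None of 5 tested eosinophil genes was called by edgeR (also 0 at an unadjusted p under 0.05 and 0 by DESeq2; 49.1 to 92.2 CPM and 17.2 to 61.0 CPM), and Epx, an eosinophil granule gene, was at 0 in all libraries. Fibroblast markers rose in 2 and fell in 2 of 10 (6049 to 8226 CPM and 7092 to 8602 CPM), and keratinocyte markers rose in 4 and fell in 3 of 10. Dendritic and Langerhans cell markers rose in 2 and fell in 4 of 12 (1332 to 1793 CPM and 1093 to 1530 CPM), and 1 of 6 B cell markers fell (72.8 to 124 CPM and 39.5 to 76.8 CPM). The innate lymphoid, fibroblast and dendritic lists were called, in either direction, at a share near the 46.1% of all tested genes.

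**Figure D5:**
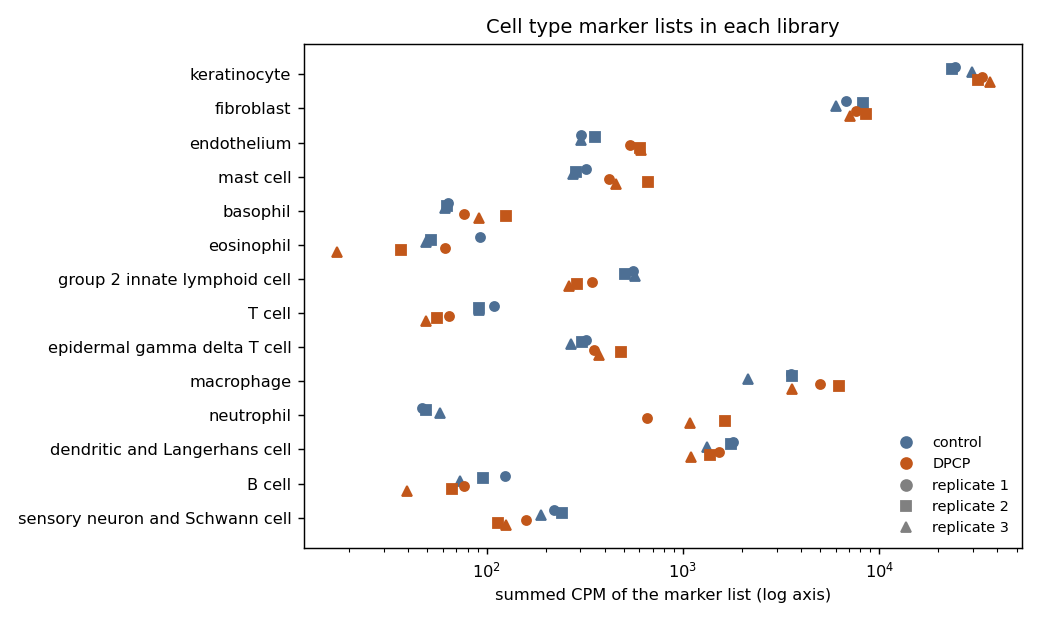
Summed level of the markers of each cell type in each library, in CPM on a log axis, with control and DPCP libraries side by side. The neutrophil sum, which includes S100a8 and S100a9, is higher in DPCP skin by the widest margin, and the T cell and innate lymphoid sums are lower. Some markers, such as S100a9 and Gata3, are also made by other skin cells.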

How the data were processed

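RNA from 3 control and 3 DPCP skin samples was isolated with TRIzol from tissue kept in RNAlater, and strand-preserving mRNA libraries were read in pairs, per the labels' protocols. The authors deposited raw read counts per gene. Per the file headers, featureCounts 1.6.2 assigned reads to genes of Ensembl release 102 (GRCm38), and the command set no option for strand, pairs or multiple alignments, so mates were counted separately on either strand, and reads over 2 genes or several places were dropped. Trimmomatic 0.36, StringTie 2.2.1, HISAT2 2.2.1, DESeq2 1.34.0 and mm10 are named in the submitters' processing notes. The deposited length per gene, in exon bases, gave the counts per kb. It was not fitted to the transcripts present, so levels and ratios compared between genes are approximate.

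Symbols came from GENCODE M21 (55141 of 55487 identifiers matched), and coordinates from the deposited table. Counts were tested with edgeR 4.0.16 (R 4.3.3) by its quasi-likelihood test with TMM factors and filterByExpr defaults on all 6 libraries, with no covariate. Adjusted p-values are Benjamini-Hochberg over 18259 genes, with calls under 0.05, and SE is the unshrunken log2 fold change over the square root of F. CPM are scaled by TMM factors and given as mean and SD of 3 libraries. Ratios used counts per kb with 0.5 added to each count. Library pairs of the same group had correlations of 0.985 to 0.987 in log2 CPM. No pair was a copy of another, since chi-square statistics per gene were 19.6 or more.

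The 10 genes, the 7 pathway lists, the 14 marker lists and the tests were chosen with earlier results of these data known. All 10 genes were named, with up to 3 genes per pathway list and direction with the smallest p, Il1rap, Osmr, Il4, Il13 and Il31 whatever their values, and for Tslp and Il33 the 3 genes whose log2 CPM correlated best with them. A gene that this rule names is not reported here. Genes named beside these were chosen after their values were seen (Il15, Stat6, Capn1, the mast cell proteases, Trpa1, Epx, Il9 and Il5). On 1 set of simulated counts (17696 genes, 200 changed), the shares recovered were 31.3% at a true change of 1.5-fold, 59.7% at 2-fold and 95.5% at 4-fold, and 14 of 138 calls were false. In these data 46.1% of tested genes were called, a much larger share than was changed in the simulation, so its shares do not carry over. RefSeq gave the promoters. The alternatives tried were upper-quartile or RLE factors, totals alone, 2 other count filters, DESeq2 1.42.0, a replicate block, genes sharing no exon base, and each library left out.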

Additional observations from a re-analysis of the deposited data

How the results depend on the processing

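None of the results changed direction in a called value. Of the values and counts that answer a comparison, 399 stayed the same, 30 moved and 2 lost the call. Same meant the same side of the threshold for a gene, with the same direction where called. For a count it meant staying within 1.5 times, and for a chain ratio a shift smaller than its pooled SD. Il7r, never called, counted as the same although its log2 fold change ranged from −0.27 to 0.25. Both lost calls were of Tslp, whose log2 fold change ranged from 1.02 to 1.96 with single libraries left out (1.47 and 1.25 where lost). The chain ratios could not reach the threshold under any setting, and Il13ra2/Il13ra1 went from 0.70 to 0.38 without DPCP replicate 2. Of the values of other single genes named, 24 lost the call (Il7, Irs2, Mgl2, Retnla, F2rl1 and Hrh1), 1 gained it (Il1rap) and 424 did neither. Restricting the test to genes sharing no exon base removed Il4ra, Il2rg and Il31ra, which lowers counts by construction: 2708 genes were higher, 0 of the 10 genes lower, and the lists had 1 cytokine ligand lower, 1 receptor partner lower, 3 signalling genes higher and 0 lower, and 1 itch gene lower. The count of cytokine ligands lower was 1 with RLE factors, without a count filter, with at least 1 CPM in 3 libraries, with DESeq2, with the replicate block and with each library left out (1 to 1), since Il7 or Il25 lost its call or its place in the test. The count of type 2 target genes lower was 4 without a count filter and 4 with the replicate block, and 0 to 4 with single libraries left out. The counts of Tslp regulators lower (2 to 4) and itch genes lower (1 to 2) also moved with single libraries left out. The causes were not tested beyond this. Library totals alone moved the median log2 fold change of all genes to −0.09. The replicate numbers did not pair the libraries (same-number correlations of 0.046, 0.027 and 0.112, where control replicates 2 and 3 correlated best with their own number and control replicate 1 with DPCP replicate 2, at 0.099); with the replicate block 8501 genes were called against 8417 without it, and Il7 lost its call (adjusted p = 0.0754). For low genes such as Il13, with 19 and 36 counts, depth limits what can be seen.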

Other observations

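Over the 6 libraries and 11891 genes with a mean of at least 5 CPM, the genes whose log2 CPM was most like that of Tslp included Ccdc32 and Eda2r (Pearson r of 0.984 and 0.983), and those most like Il33 were Src, S100a9 and S100a8 (r of 0.9998, 0.9997 and 0.9996). The libraries form 2 groups, so these values reflect the difference between the groups as well as the spread within them. S100a9, a calcium-binding protein of neutrophils and stressed keratinocytes, was at 4.67, 3.10 and 8.42 CPM in the control and 215, 627 and 343 CPM in the DPCP libraries. Its order over the 6 libraries was that of Il33, but it was picked for its correlation with Il33, so this is no separate result.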
